A study of Mus musculus with 29 samples.

Results

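Major urinary proteins (MUPs) are small secreted lipocalins that the mouse liver makes in large amounts, releases into the blood and passes into the urine, where they carry volatile pheromones and act as scent signals themselves. The members described here are the 10 genes Mup1, Mup3, Mup7, Mup9, Mup10, Mup11, Mup12, Mup17, Mup20 and Mup21, chosen by name from the 55421 genes of the count table. Whole liver of mice was profiled by bulk RNA-seq to ask what HDM201, an inhibitor of the p53 ubiquitin ligase MDM2, does in aged animals of both sexes. Counts were analysed for 27 mice, and values in FPKM (fragments scaled by transcript length and library depth) for 29.

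Among females, 5 mice were young with vehicle, 4 old with vehicle and 5 old with HDM201. Among males, the same groups held 4, 4 and 5 mice. Old mice are labelled C57BL/6J and were 20 months old if female and 24 months old if male. Young mice are labelled C57BL6/N and were 5 months old. HDM201 was given at 10 mg/kg by oral gavage daily for 14 days, and the other groups, young and old, received vehicle. Age and substrain cannot be told apart in any comparison of old with young mice, and the old males were older than the old females. The ages given are those of the sample labels, from which the study's methods differ slightly. No young mouse received HDM201. The libraries are labelled as replicates of a group, and p-values measure the spread between them.

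MUP transcription in hepatocytes is under the control of pituitary growth hormone, androgens, thyroid hormone and glucocorticoids. The pulsatile growth hormone secretion of males acts through JAK2 and STAT5b in the hepatocyte and goes with much higher MUP output than the more continuous pattern of females. Mup20 encodes darcin, a male pheromone that attracts females and is best known for its dependence on sex. Mup3 is a divergent liver member at the edge of the cluster, and the genes in the middle of it encode the nearly identical MUPs that make up much of urinary protein.

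The 10 members lie on the minus strand of 1 cluster on mouse chromosome 4 (GRCm38, GENCODE vM21, chr4:59956804-62150863), which holds 48 genes named Mup, 22 of them protein coding. Mup7 (chr4:60066469-60070475), Mup9 (chr4:60418046-60421952), Mup1 (chr4:60498012-60501960), Mup10 (chr4:60578260-60582199), Mup11 (chr4:60658466-60662411), Mup12 (chr4:60737383-60741326) and Mup17 (chr4:61591929-61595871) occupy the middle. Mup20 (chr4:62050234-62054158), Mup3 (chr4:62083476-62087342) and Mup21 (chr4:62147932-62150863) lie together at the far end. The coding sequences of the 7 middle members were 98.3% to 99.6% identical to each other in global alignments, with 1 to 7 substitutions between any pair. Mup20 was 90.1% to 91.3% identical to those 7, Mup21 83.9% to 85.0% and Mup3 82.6% to 83.8%. Mup3 and Mup21 were closer to each other, at 94.7% with 20 substitutions.

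The stretch below shows a place where some members share every letter and others differ. It does not by itself show which members can be told apart over their whole length. It covers coding bases 136 to 195 of Mup11 and the aligned bases of the others, all within exon 2, with capitals at the bases that differ from Mup11. Mup1, Mup9, Mup10 and Mup12 have the letters of Mup11 here, and Mup21 has those of Mup3. The sequences were read from the GENCODE vM21 transcripts of GRCm38 and are written in the direction of transcription.
Mup11 (chr4:60661768-60661827): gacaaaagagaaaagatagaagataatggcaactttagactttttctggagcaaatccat
Mup7 (chr4:60069771-60069830): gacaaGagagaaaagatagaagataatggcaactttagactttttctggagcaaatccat
Mup17 (chr4:61595231-61595290): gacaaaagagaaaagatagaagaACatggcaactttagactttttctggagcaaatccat
Mup20 (chr4:62053518-62053577): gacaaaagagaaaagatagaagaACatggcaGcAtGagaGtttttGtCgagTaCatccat
Mup3 (chr4:62086838-62086897): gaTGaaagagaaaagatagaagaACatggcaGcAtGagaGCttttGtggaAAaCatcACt

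The share of 100-base windows of a member's main transcript that occur in no other annotated gene of the cluster was 96.9% for Mup3, 95.5% for Mup21 and 61.2% for Mup20. It was 40.6% for Mup17, 22.5% for Mup12, 16.5% for Mup11, 14.6% for Mup10, 12.9% for Mup7 and 12.8% for Mup1, and 0% for Mup9. How the authors' counting treated reads that match several genes is not given in the sources used here. Counts of the 7 middle members are therefore uncertain, and the account below rests mainly on Mup3, Mup20 and Mup21. Mup21 had 17553 counts over the 27 mice, against 1228250 for its close relative Mup3. Whether reads of Mup3 add to the counts of Mup21 was not tested.

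**Figure D1:**
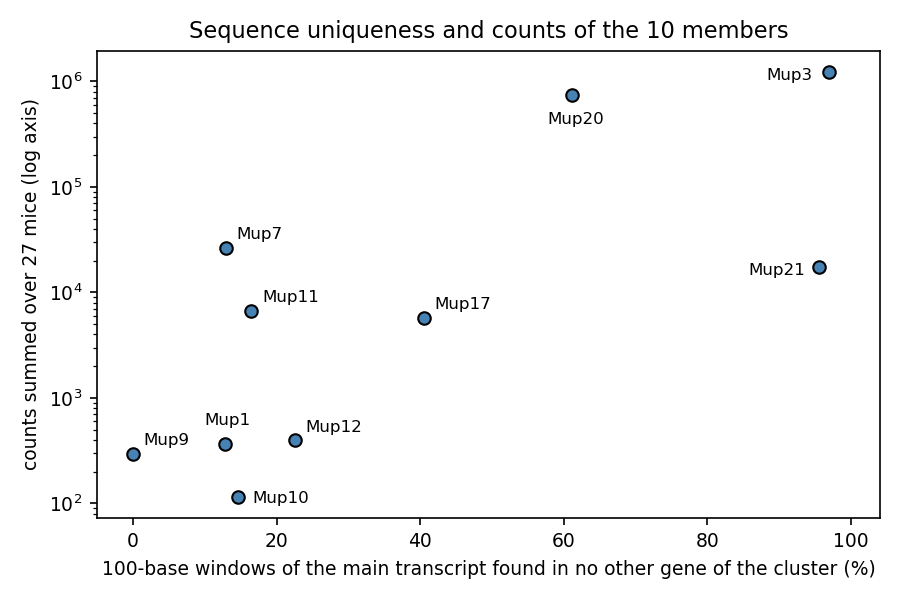
Counts of each member summed over 27 mice (log axis) against the percentage of 100-base windows of its main transcript that occur in no other gene of the cluster. Mup3 and Mup20 stand highest with 1228250 and 743566 counts, and Mup9, Mup1, Mup10 and Mup12, at 0% to 22.5% unique, stand under 400 counts.

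The depth behind each mouse was 16485900 to 23570458 counts on genes (median 19149235). The X-inactivation transcript Xist and the Y-linked gene Ddx3y placed every mouse in its labelled sex. The hepatocyte markers, 8 genes led by Alb, summed to between 83680 and 166697 CPM (counts scaled by TMM library sizes) in every mouse. Salivary and lacrimal glands also make MUPs. Of 6 markers of those glands, Smr3a, Prol1, Lpo and Dcpp1 had 0 counts in all mice, and the whole list summed to 172 to 327 CPM. Amy1 was the only 1 of the 6 with enough counts to be tested with age in females, so the sum does not describe the list as a whole.

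Mup3 and Mup20 supplied 59.0% and 35.7% of all counts on the 49 rows named Mup over the 27 mice. Mup7 added 1.27%, Mup21 0.844%, Mup11 0.322% and Mup17 0.277%, and Mup1, Mup9, Mup10 and Mup12 between 0.00558% and 0.0191% each. The members as a whole took 0.200% ± 0.0276 of counts in young vehicle females (SD, n = 5), 0.0799% ± 0.0242 in old vehicle females (n = 4) and 0.0467% ± 0.0112 in old HDM201 females (n = 5). In males they took 0.746% ± 0.134 in young vehicle mice (n = 4), 0.805% ± 0.336 in old vehicle mice (n = 4) and 0.640% ± 0.107 in old HDM201 mice (n = 5). The lowest male, at 0.434%, lay above the highest female, at 0.231%. In whole liver, fewer cells of a type and less RNA per cell cannot be told apart.

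The makeup of the family differed between the sexes. Mup3 made up 97.9%, 97.6% and 95.1% of member counts on average in young vehicle, old vehicle and old HDM201 females, and Mup20 1.56%, 1.40% and 2.73%. In males Mup3 made up 69.8%, 49.0% and 39.6% in the same order, and Mup20 25.6%, 48.4% and 58.9%. The 7 middle members together held 0.365% to 1.64% of member counts as female group means and 0.756% to 3.37% as male group means.

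Sex was the contrast with the widest differences in Mup20. In young vehicle females Mup20 was at 44.3, 30.8, 23.9, 37.4 and 27.9 CPM, and in young vehicle males at 1600, 1728, 1936 and 2471 CPM. The groups lay far apart, with every male above every female. Mup20 was higher in young males by 5.89 ± 0.22 on the log2 scale (SE), with an edgeR FDR of 1.36e-08, and the mean CPM was 58.9 times as high. In old vehicle mice the 4 females had 15.2, 8.28, 13.0 and 5.70 CPM and the 4 males 2928, 4877, 2641 and 4493 CPM. The log2 difference between old males and old females was 8.47 ± 0.40 (FDR 1.76e-06), a ratio of 353 between the means.

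Mup21, which lies beside Mup3 at the end of the cluster, had the next widest sex difference of the 3 well resolved members. It was at 4.00, 3.39, 3.12, 5.80 and 3.88 CPM in young vehicle females and at 106, 59.9, 112 and 75.6 CPM in young vehicle males. Every male again lay above every female, and the log2 difference was 4.47 ± 0.22 (FDR 1.01e-07). In old vehicle mice Mup21 was at 3.02, 1.12, 2.27 and 3.81 CPM in females and at 41.0, 105, 38.9 and 145 CPM in males, with a log2 difference of 5.02 ± 0.53 (FDR 3.75e-04).

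Mup3 differed between the sexes by less than Mup20 and Mup21. Young vehicle females had 2444, 2100, 1948, 2158 and 1604 CPM and young vehicle males 7444, 6029, 4186 and 4484 CPM, which did not overlap. The log2 difference was 1.45 ± 0.18 (FDR 4.59e-04). Old vehicle females had 1038, 514, 694 and 732 CPM and old vehicle males 1374, 5711, 3633 and 6215 CPM. These did not overlap either, although old vehicle male 2 lay close to the highest female, and the log2 difference was 2.51 ± 0.42 (FDR 0.00390). Under limma on log2(FPKM + 1) with the mice that have only FPKM included, neither sex difference of Mup3 passed the threshold (FDR 0.127 in young and 0.0842 in old mice). The mice so added had the lowest Mup3 of their groups, young vehicle male 5 at 1997 FPKM and old vehicle male 1 at 1235 FPKM.

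**Figure D2:**
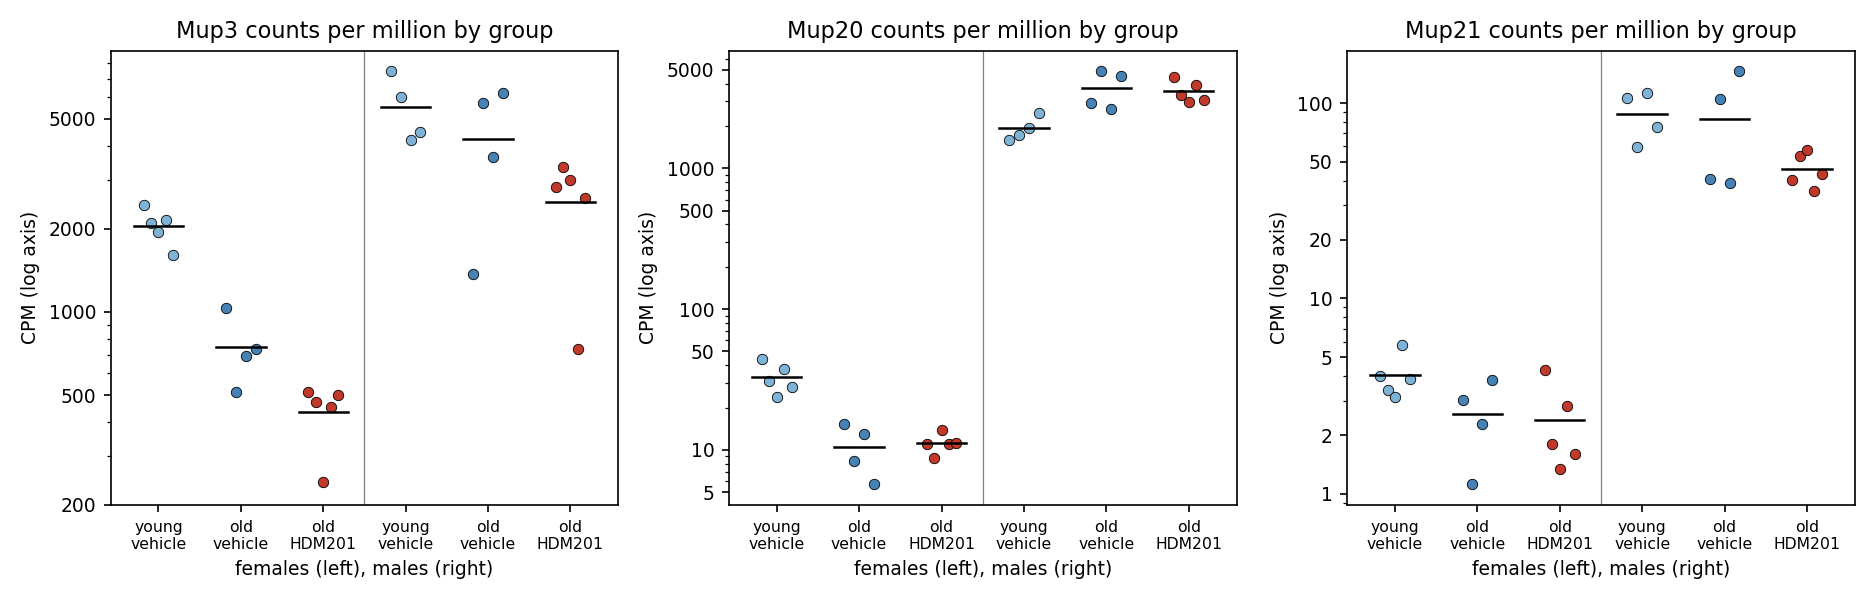
CPM of Mup3, Mup20 and Mup21 in each of 27 mice (points, log axes) by group, with group means as lines. All males lie above all females for Mup20 and Mup21, and old vehicle females lie below young vehicle females for Mup3 and Mup20.

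In young vehicle mice 6 members passed the filter on low counts, and 5 of them were called higher in males at an FDR under 0.05, against 4.91% of all 13875 genes tested called higher. The same 5, Mup3, Mup7, Mup11, Mup20 and Mup21, had groups that did not overlap in CPM, as did 5.79% of all genes in that direction. Mup7 passed the filter only through the males, where it is high, so these counts are a description only. Mup7 had 12, 5, 8, 1 and 7 counts in young females and 3998, 6901, 205 and 3837 counts in young males (log2 difference 9.14 ± 0.94, FDR 8.78e-05). Mup11 had 33, 13, 29, 11 and 23 counts in young females and 663, 1340, 171 and 777 counts in young males (5.08 ± 0.54, FDR 1.08e-04). Mup17 was not called (2.67 ± 0.89, FDR 0.0733), and its counts overlapped, with 149, 33, 120, 10 and 149 in females and 761, 1264, 17 and 202 in males. It passed without young vehicle male 3 (FDR 0.0212), whose 17 counts were the lowest among young males.

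In old vehicle mice 4 members passed the filter, and 3 were called higher in males, against 9.60% of 14088 genes. The 3 were Mup3, Mup20 and Mup21, also those without overlap, beside 12.4% of genes higher without overlap. Mup17 was the other (log2 difference 1.93 ± 1.44, FDR 0.375). The remaining 6 members did not pass the filter there, and old vehicle male 2 had 0 to 6 counts of each. Without that mouse 7 members were called, of which Mup1, Mup7, Mup11 and Mup12 passed only through the males.

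With age the sexes differed. In females both Mup3 and Mup20 fell from the young to the old vehicle group. The values of Mup3 given above fell from a mean of 2051 to 744 CPM, and every old female lay below every young one (log2 change -1.44 ± 0.18, FDR 1.58e-04). The values of Mup20 fell from a mean of 32.9 to 10.6 CPM, again without overlap (log2 change -1.62 ± 0.25, FDR 6.84e-04). Mup21 averaged 4.04 CPM in young and 2.55 CPM in old females, with overlap, and was not called (-0.64 ± 0.30, FDR 0.117). Without old vehicle female 4 it passed (-0.91, FDR 0.0451).

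Of 5 members tested for age in females 3 were called lower, against 15.0% of 14233 genes, and the same 3 had no overlap, against 13.3%. Mup11, the remaining called member, passed the filter only through the young females, where it is high, so these counts are a description only. It was at 33, 13, 29, 11 and 23 counts in young and 3, 1, 2 and 5 counts in old vehicle females (log2 change -3.05 ± 0.52, FDR 0.00109). That call was not kept in FPKM, where the young females had 30.2, 15.3, 43.9, 12.2 and 54.2 and the old females 30.5, 6.94, 12.2 and 46.1 (log2 change -0.49, FDR 0.576 in limma), nor in a fit over all 6 groups (FDR 0.273). Mup17, at 10 to 149 counts in young and 20 to 202 in old vehicle females, was not called (-0.28 ± 0.68, FDR 0.784).

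In males Mup20 was higher in old than in young vehicle mice. The 4 young males, at 1600 to 2471 CPM, lay below the 4 old males, at 2641 to 4877 CPM. The means were 1934 and 3735 CPM, and the log2 change was 0.95 ± 0.23 (FDR 0.0497). The call stood at the threshold: with any 1 of the 8 mice left out the FDR was 0.0540 to 0.106, and with the replicate number as a block it was 0.238. Mup20 was the only 1 of 8 members tested that was called with age in males, against 2.76% of 13755 genes called higher, and the only one without overlap, against 7.33%.

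The other 7 tested members were not called with age in males. Mup3 averaged 5536 CPM in young and 4234 CPM in old vehicle males, with overlap (log2 change -0.38 ± 0.40, FDR 0.620). Mup21 averaged 88.3 and 82.5 CPM (-0.09 ± 0.40, FDR 0.916). The changes of Mup1, Mup7, Mup11, Mup12 and Mup17 were -1.10 ± 0.92, -0.70 ± 1.29, -0.49 ± 1.04, 0.64 ± 0.77 and -1.02 ± 1.47 (FDR 0.528 to 0.822).

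The age changes of the sexes were compared directly as an interaction over the 4 vehicle groups. Mup20 differed, by 2.56 ± 0.38 on the log2 scale (FDR 0.00195), lower with age in females and higher in males, and it passed under every alternative run. It was the 1 member called of 9 tested, against 3.92% of 14721 genes. The interaction of Mup3 was 1.05 ± 0.45 (FDR 0.186), and without old vehicle male 2 it was 1.34 (FDR 0.0303). That of Mup21 was 0.54 ± 0.56 (FDR 0.638). Age, substrain and the older age of the old males enter this contrast together.

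Under HDM201 no member was called in either sex with edgeR. In old females, Mup3 was at 1038, 514, 694 and 732 CPM with vehicle and at 513, 470, 242, 453 and 500 CPM with HDM201. Every treated female lay below every vehicle female, although the highest treated and lowest vehicle values, 513 and 514 CPM, nearly touched. The log2 change was -0.78 ± 0.22 with an unadjusted p of 0.00415 and an FDR of 0.0638 in edgeR, and the change passed in DESeq2 (adjusted p = 0.0370) and in edgeR without the filter on low counts (FDR 0.00917). It did not pass with all 6 groups in one fit (FDR 0.257), with the replicate block (FDR 0.0559) or in limma on FPKM (FDR 0.143). With each of the 9 old females left out in turn the FDR was 0.0654 to 0.158. Of 5 members tested 0 were called, against 5.25% of 14445 genes, and Mup3 was the 1 member without overlap, against 4.63% of genes lower without overlap.

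Mup20 did not move with HDM201 beyond its spread in old females, at 11.1, 8.83, 13.8, 11.0 and 11.2 CPM with the drug and 15.2, 8.28, 13.0 and 5.70 CPM with vehicle (log2 change 0.08 ± 0.24, FDR 0.872). Mup21 overlapped as well, at 1.35 to 4.32 CPM with HDM201 and 1.12 to 3.81 CPM with vehicle (-0.12 ± 0.39, FDR 0.893). Mup9 (0.53 ± 0.73, FDR 0.723) and Mup17 (0.85 ± 0.78, FDR 0.566) rested on 0 to 26 and 10 to 341 counts per mouse.

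In old males Mup3 was at 1374, 5711, 3633 and 6215 CPM with vehicle and at 2826, 3344, 3000, 733 and 2577 CPM with HDM201. The ranges overlapped, and the log2 change was -0.76 ± 0.46 (FDR 0.520). Mup20 was at 2928, 4877, 2641 and 4493 CPM with vehicle and at 4418, 3327, 2964, 3902 and 3031 CPM with HDM201 (-0.07 ± 0.21, FDR 0.909). Mup21 was at 41.0, 105, 38.9 and 145 CPM with vehicle and at 40.4, 53.6, 57.8, 35.6 and 43.5 CPM with HDM201 (-0.83 ± 0.36, unadjusted p 0.0395, FDR 0.392).

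Mup7 in old males had 6, 957, 615 and 7749 counts with vehicle and 1440, 364, 250, 16 and 139 counts with HDM201, and its log2 change of -2.34 ± 1.30 (FDR 0.483) lay within that spread. Mup1, Mup11, Mup12 and Mup17 had changes of -0.64 ± 1.03, -0.75 ± 1.23, -0.74 ± 0.86 and -0.82 ± 1.50 (FDR 0.755 to 0.857). Of 8 members tested in males 0 were called, where 0.00709% of 14109 genes were called, a single gene, and 0 had no overlap, against 4.03% of genes. DESeq2 called 1 member in females (Mup3) among 1330 genes, and 0 in males among 151 genes. At an unadjusted p under 0.05 the members were 1 of 5 in females (Mup3), beside 3247 of all 14445 genes, and 1 of 8 in males (Mup21), beside 1710 of 14109, so that neither count stands apart from all genes.

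The interaction of sex and HDM201 gave 0 calls among 9 members tested, against 0.107% of 14974 genes, 0 in DESeq2, which called 643 genes, and 0 at an unadjusted p under 0.05, which 2774 genes passed. It was 0.02 ± 0.56 for Mup3 (FDR 0.993), -0.16 ± 0.34 for Mup20 (FDR 0.844) and -0.72 ± 0.60 for Mup21 (FDR 0.556). The comparisons of HDM201 and of age share the old vehicle mice, so that their values are set side by side only: the log2 changes of Mup3 in females were -1.44 (age) and -0.78 (HDM201), those in males -0.38 and -0.76, and those of Mup20 were -1.62 and 0.08 in females and 0.95 and -0.07 in males.

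**Figure D3:**
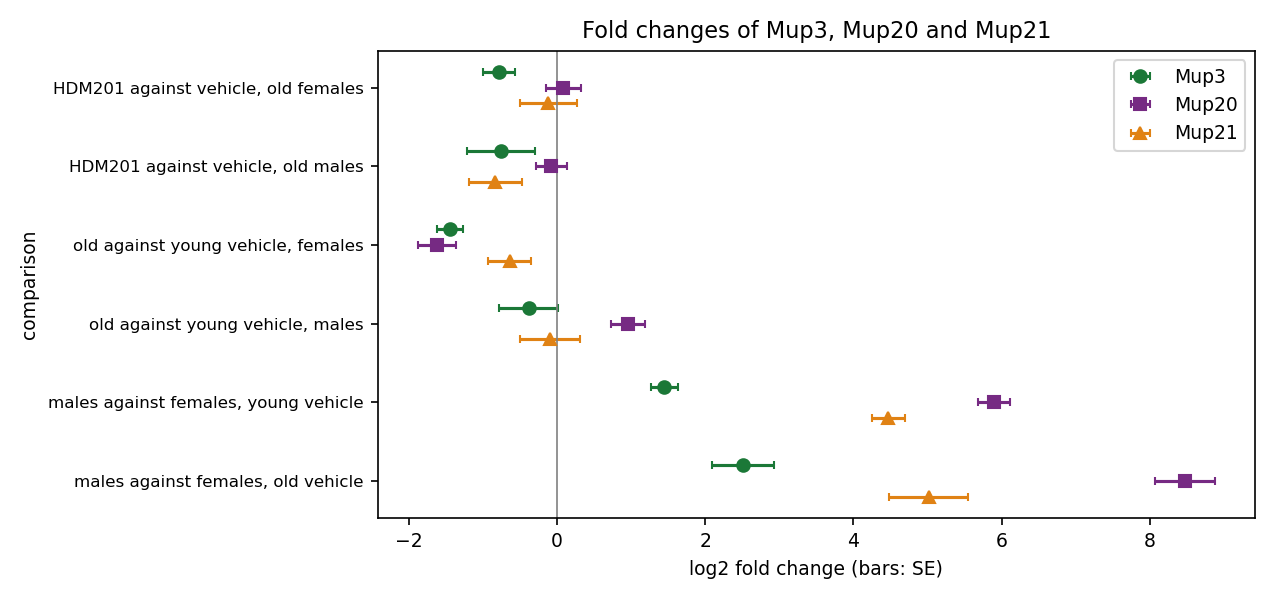
Log2 fold changes (points) with their SE (bars) for Mup3, Mup20 and Mup21 in the 6 comparisons of 2 groups. The values of Mup20 run from -1.62 with age in females to 8.47 between old males and old females.

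Ordered by mean CPM, Mup20 was highest in old vehicle males (3735 ± 1115, SD, n = 4) and old HDM201 males (3529 ± 620, n = 5), which overlapped, followed by young vehicle males (1934 ± 384, n = 4), young vehicle females (32.9 ± 8.06, n = 5), old HDM201 females (11.2 ± 1.76, n = 5) and old vehicle females (10.6 ± 4.36, n = 4). The old HDM201 and old vehicle females overlapped, and the other neighbours in that order did not. Mup3 was highest in young vehicle males (5536 ± 1507, n = 4), then in old vehicle males (4234 ± 2210, n = 4), old HDM201 males (2496 ± 1024, n = 5), young vehicle females (2051 ± 307, n = 5), old vehicle females (744 ± 217, n = 4) and old HDM201 females (436 ± 111, n = 5). The values of Mup3 overlapped between all neighbours from young vehicle males to young vehicle females, and not between the female groups.

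The balance of Mup20 and Mup3 can be read within each mouse, free of library scaling. The ratio of Mup20 to Mup3 counts was 0.0181, 0.0146, 0.0123, 0.0173 and 0.0174 in young vehicle females and 0.0147, 0.0161, 0.0188 and 0.00779 in old vehicle females. It was 0.215, 0.287, 0.462 and 0.551 in young vehicle males and 2.13, 0.854, 0.727 and 0.723 in old vehicle males. The male groups did not overlap, and the female groups did.

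With HDM201 the ratio was 0.0216, 0.0188, 0.0570, 0.0243 and 0.0223 in old females and 1.56, 0.995, 0.988, 5.32 and 1.18 in old males. All but 1 of the treated females lay above the highest vehicle female, at 0.0188, and the lowest treated female was level with it at that precision. Treated and vehicle males overlapped. HDM201 male 4, with the ratio of 5.32, had the fewest Mup3 counts among males (13670) beside 72729 Mup20 counts.

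The same ratio in FPKM, a unit per transcript length, could be given for 29 mice. It ran from 0.379 to 0.950 in 5 young vehicle males and from 1.23 to 7.80 in 5 old vehicle males. The highest of these was old vehicle male 1, which has no counts here and had 9633 FPKM of Mup20 and 1235 FPKM of Mup3. Young vehicle male 5, the other mouse with FPKM only, had a ratio of 0.507 but a sum of 3113 FPKM over the members, against 9697 to 14001 in the other young males. The study left a young male out of its analysis because of an open wound and suspected infection. Whether that was young vehicle male 5 is not given in the sources used here.

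**Figure D4:**
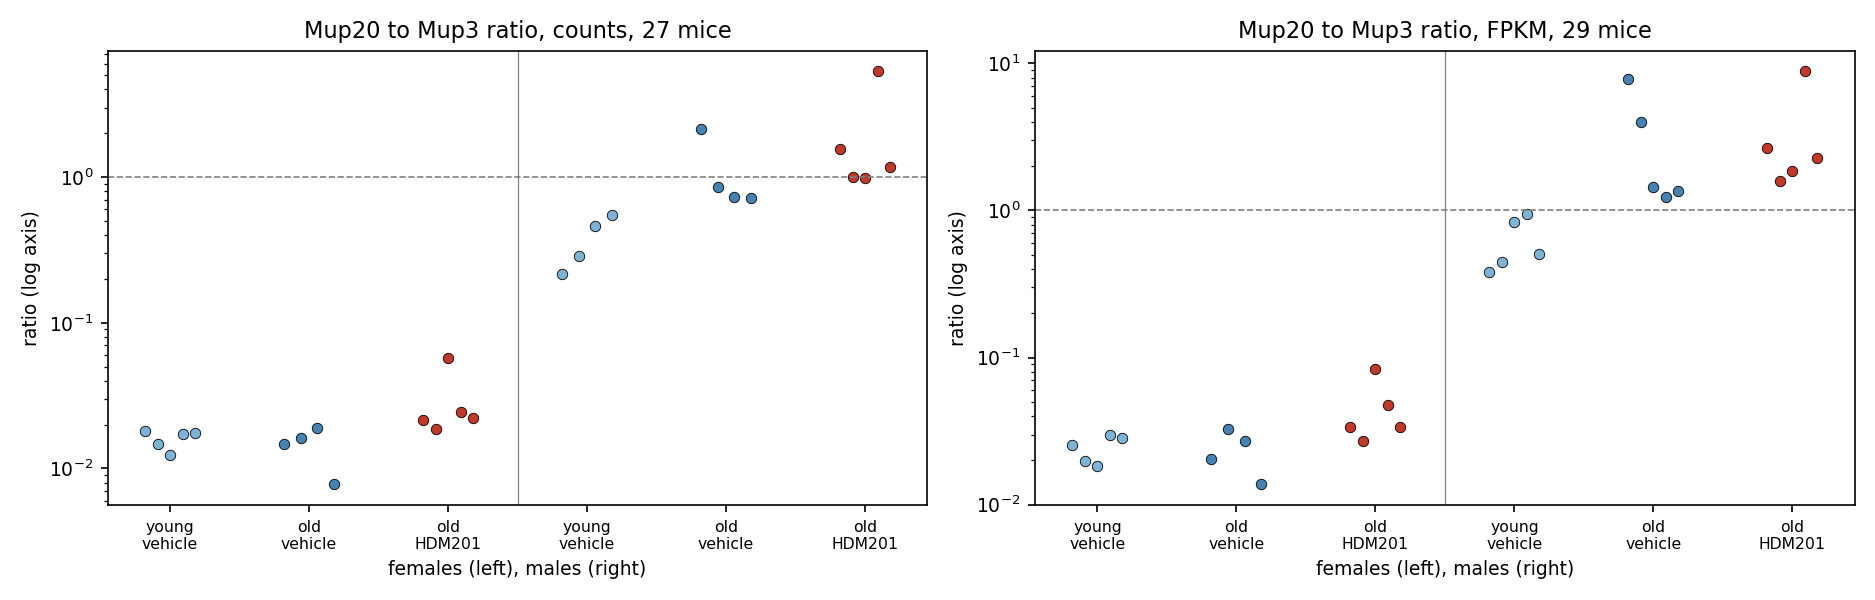
Ratio of Mup20 to Mup3 in each mouse (points, log axes) from counts (left, 27 mice) and FPKM (right, 29 mice), with a dashed line at 1. Young vehicle males lie below 1 in both units, and in FPKM all old males lie above 1.

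The 7 near-identical members varied widely between mice of a group. In males Mup7 ran from 6 to 7749 counts (median 615, n = 13), Mup11 from 3 to 1728 (median 181) and Mup17 from 0 to 1264 (median 36). Old vehicle male 5 had the most counts of Mup7, Mup9, Mup10, Mup11 and Mup12 among males, and old vehicle male 2 the fewest or tied for the fewest of all but Mup10. HDM201 male 1 had 668 counts of Mup17 and 1200 of Mup11, against 6 to 47 and 26 to 135 in the other treated males.

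Across the 13 males with counts, Pearson's r of log2(CPM + 1) between pairs of the 7 ran from 0.637 to 0.942, with a median of 0.818 over 21 pairs. That of Mup3 with the 7 ran from 0.406 to 0.869, and that of Mup20 from -0.282 to 0.249. Mup3 and Mup20 had an r of -0.329 in the 13 males and 0.817 in the 14 females. That of Mup3 and Mup21 was 0.746 in males and 0.703 in females. These values describe mice that share 3 groups per sex and a library each, and the near-identical members can share reads.

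Counts and FPKM ranked the near-identical members differently. Mup10 had the fewest counts of the 10 members in males, 0 to 17 with a mean of 5.69, and yet its mean FPKM of 90.2 was above those of Mup11 (76.0) and Mup17 (25.4), which averaged 505 and 324 counts. In females Mup10 had 0 to 10 counts and 4.20 to 156 FPKM, and Mup1 0 to 3 counts and 1.07 to 8.80 FPKM. FPKM from Cufflinks and counts from HTSeq are separate estimates of the same reads.

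**Figure D5:**
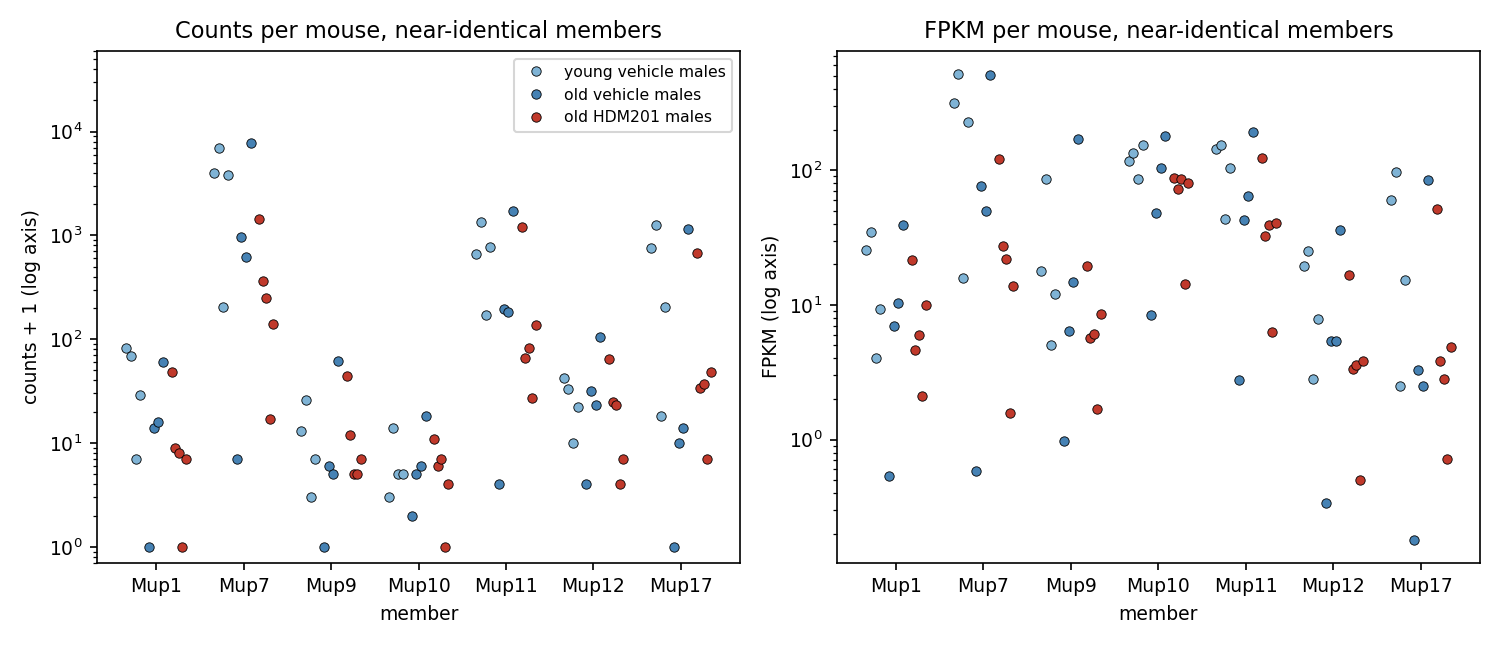
Counts plus 1 (left) and FPKM (right) of the 7 near-identical members in 13 males with counts (points, log axes), coloured by group. Mup10 is at 0 to 17 counts per male but at 8.38 to 180 FPKM.

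The other 39 rows named Mup, 12 genes and 27 pseudogenes, were read in the same fits. Mup15 was the most abundant with 14496 counts over 27 mice and ran from 0 to 2592 counts per mouse. Mup22 had 8733 counts, and Mup-ps16 7526. In females with age 2 of 11 tested were called, both lower (Mup2 and Mup-ps13), beside 15.0% of all genes called lower. Mup14, with 6 to 12 counts in young females and 156 to 1248 in young males, was called higher in males in both age groups, and Mup-ps16 lower in old males. In old mice Mup14 had 0 to 9 counts in females and 11 to 960 in males. It passed the filter only through the males, where it is high, so its calls are a description only. Of all genes 4.91% were called higher in young males and 9.60% in old males, and 8.40% lower in old males. With HDM201 0 of 11 in females and 0 of 9 in males were called.

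The genes most like the family were sought among 12758 genes that are no Mup, by the smaller of the Pearson correlations over 14 females and over 13 males with the summed CPM of the members. The highest were Cyp2d9 (0.917), a male-biased cytochrome P450, Slco1a1 (0.894), a male-biased organic anion transporter, Sult2a8 (0.869), a hepatic sulfotransferase, AC118710.1 (0.852) and Hopx (0.849). All 5 were lower with age in females, with log2 changes from -4.28 for Slco1a1 to -0.82 for AC118710.1 and Hopx, and none was called with age in males or with HDM201 in either sex. The 5 were chosen by likeness over these same mice to a sum that falls with age in females. Their own fall was largely set by that choice and is a description only. Their mice are grouped by age, so the r values over each sex include the group differences.

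Other sex-biased genes of liver were read from fixed lists. Of 12 male-biased genes 11 were called higher in young males and 12 in old males, Cyp4a12a among them (log2 difference 10.37 ± 0.37 in young mice, FDR 1.27e-08), a fatty acid hydroxylase. Of all genes 4.91% were called higher in young males and 9.60% in old males. With age in females only 9 of the 12 were tested. The others passed the filter between the sexes only through the males, where they are high. The counts between the sexes are therefore a description only. With age in females 6 of the 9 were called lower and 0 higher, against 15.0% and 16.8% of all genes. Among old females with HDM201 8 were tested, so not all 9 passed the filter without the young females. The count with age in females is thus a description only. The median log2 change there was -1.25 beside 0.01 over all genes. The deepest falls were those of Hsd3b5, a steroid dehydrogenase (-5.84 ± 0.90, FDR 6.30e-04), and Slco1a1 (-4.28 ± 0.30, FDR 4.82e-06). With age in males 0 of 12 were called (median -0.19), and with HDM201 1 of 8 in females, C6 (-1.01 ± 0.19, FDR 0.0170), and 0 of 12 in males (median -0.51 beside 0.01 over all genes). With HDM201 in females 2.90% of all genes were called lower.

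Of 18 female-biased genes 16 were called lower in males in both age groups, beside 5.63% of all genes in young and 8.40% in old mice. With age in males only 9 of the 18 were tested. The others passed the filter between the sexes only through the females, where they are high, so these counts are a description only. With age in females 11 were called higher and 6 lower, beside 16.8% and 15.0% of all genes, so that this list split. A1bg, a secreted plasma protein, rose by 4.22 ± 0.64 on the log2 scale (FDR 5.69e-04), and Sult3a1, a sulfotransferase, fell (-3.96 ± 0.41, FDR 5.60e-05). With HDM201 1 of 18 was called in females, Slc22a26, lower (-0.38 ± 0.08, FDR 0.0255), beside 2.90% of all genes called lower, and 0 of 9 in males.

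Among 10 genes of growth hormone signalling, Cish, a STAT5-induced feedback inhibitor of the receptor, was called lower with HDM201 in males. It was at 24.1 to 47.4 CPM in old vehicle males (n = 4) and at 7.54 to 12.0 CPM in old HDM201 males (n = 5), without overlap (log2 change -1.79 ± 0.20, FDR 0.0350), and was the only gene called in that comparison. It was not called in females, and the interaction of sex and HDM201 was called (-2.36 ± 0.35, FDR 0.0400). In the comparison of males no gene was called without HDM201 male 1, 3 or 5. In the interaction no gene was called with the replicate block, in any of the 3 limma fits, or without old vehicle female 1 or 2 or HDM201 male 1 or 5. With age in females 3 of the 10 were called higher, led by Socs3 (0.91 ± 0.22, FDR 0.00720) and Stat5a (0.80 ± 0.12, FDR 6.79e-04), and Igf1, the growth factor that growth hormone induces in liver, was called lower (-0.34 ± 0.12, FDR 0.0472). Of all genes 16.8% were called higher there and 15.0% lower. With age in males 0 of 10 were called.

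Of 12 transcription factors and hormone receptors, Cux2, a repressor of male-biased genes that is itself female-biased, was called lower in young males (-5.78 ± 0.56, FDR 4.91e-05). Hnf4a, a hepatocyte master regulator, was called lower with HDM201 in females (-0.27 ± 0.06, FDR 0.0320). In males 0 of 12 were called with age or with HDM201.

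Of 12 other lipocalins 9 were tested in each comparison of 2 groups. With age in females 2 were called higher, the acute phase proteins Orm2 (1.81 ± 0.19, FDR 5.65e-05) and Lcn2 (1.50 ± 0.17, FDR 8.72e-05), and 2 lower, Ptgds, a prostaglandin synthase (-1.87 ± 0.42, FDR 0.00483), and Rbp4, the retinol carrier (-0.45 ± 0.12, FDR 0.0110), beside 16.8% of all genes called higher and 15.0% lower. With HDM201 in females 1 was called, Orm2, lower (-1.08 ± 0.23, FDR 0.0257), beside 2.90% of all genes. With age in males 0 were called.

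Markers of other cells moved with some of these groups. Macrophage and Kupffer cell markers, 8 genes, summed to 204 to 308 CPM in young vehicle females, 311 to 626 CPM in old vehicle females and 186 to 312 CPM in old HDM201 females, and 7 of 8 were called higher with age and 7 of 8 lower with HDM201. Hepatocyte markers summed to 110778 to 121391, 100994 to 127410 and 108126 to 140540 CPM in the same groups, and 3 of 8 were called lower with age, led by Cps1, a urea cycle enzyme (-0.94 ± 0.17, FDR 0.00139), and Cyp2e1 (-0.94 ± 0.17, FDR 0.00156). B and plasma cell markers, 6 genes, summed to 3.94 to 5.51 CPM in young and 17.8 to 33.7 CPM in old vehicle females, and to 3.86 to 5.40 CPM in young and 13.8 to 26.7 CPM in old vehicle males. With age 5 of 6 were called higher in females and 4 of 5 tested in males, where 2.76% of all genes were called higher. Of the neutrophil markers, at 0 to 1.26 CPM in young and 2.43 to 28.4 CPM in old vehicle females as a sum, 2 of 2 tested were called higher with age in females. Between young males and females 0 neutrophil markers and 4 B and plasma cell markers were tested. Some of both lists thus passed the filter with age only through the old mice, where they are high. The age counts of these lists are a description only. Among all genes in females, 16.8% were called higher and 15.0% lower with age, and 2.90% lower with HDM201. In males 1 of 8 macrophage and Kupffer cell markers was called higher with age, Cd68, and 0 with HDM201. The part of these markers in the changes of Mup3 and Mup20 was not tested.

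RefSeq promoter windows (GRCm38.p6) matched 7 of the 10 members. In the 250 bases before the annotated start none of the 7 held the STAT5 motif TTCNNNGAA, which 7.02% of 32851 windows hold on either strand, and none held TATAAA, which 12.4% hold. The windows of Mup3, Mup9, Mup10, Mup17 and Mup21 hold the near match tatataag close to their ends, and those of Mup7 and Mup11 end before such letters. The search was for exact letters in windows with unequal ends, so it does not say whether a member has a TATA box.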

How the data were processed

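Whole liver RNA of 27 mice was analysed as gene counts and of 29 as FPKM. The counts are raw reads per gene that the authors deposited after STAR alignment to mm10 and HTSeq counting. The FPKM values the authors deposited come from Cufflinks. How reads that match several genes were treated, and the strand setting, are not given in the sources used here. Counts were tested with the quasi-likelihood F test of edgeR 4.0.16 (R 4.3.3) on the groups compared, after TMM scaling and filterByExpr (minimum count 10, minimum total 15), with Benjamini-Hochberg adjustment over all genes tested (FDR) and a threshold of 0.05. The SE of a log2 fold change is its size divided by the square root of F. Interactions were fitted over 4 groups. Sums, shares, ratios and correlations over members carry no test.

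Alternatives were DESeq2 1.42.0, its size factors, no filter, all 6 groups in one fit, library sizes without Mup rows, a block for the replicate number, leaving out single mice, and limma 3.58.1 on log2(FPKM + 1) or log2(FPKM + 0.1), where empty cells were read as 0. With a pseudocount the fold of low genes is understated. The scripts were tested on simulated data. All columns of per-sample values were mapped to samples. The sample titles give replicate numbers but no pairing of mice by them, and the main fits used none.

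The members and the gene lists were chosen with earlier results of these data known. All 10 members are named. Other genes are named as the 5 most like the family, and from each list as the genes called with the 2 largest rises and falls, of which some are given. Other Mup rows called or most abundant are named. Counts per mouse ran from 16485900 to 23570458, which sets the precision of low members.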

Additional observations from a re-analysis of the deposited data

Results flagged for a closer look

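Within groups of 4 or 5 mice, 17 of 72 groups of values held a mouse far from the others by Dixon's criterion, which chance meets in about 1 in 20 groups. The near-identical members can share reads, so their values are not independent.

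Old vehicle male 5 stood far above the other old vehicle males for 4 members. It had 411 CPM of Mup7, against 0.314 to 55.5 in the others, and 91.6 CPM of Mup11, against 0.157 to 11.4. It also had 61.1 CPM of Mup17, against 0 to 0.746, and 3.23 CPM of Mup9, against 0 to 0.290.

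HDM201 male 1 stood far above the other treated males for 5 members. It had 80.4 CPM of Mup7, against 0.858 to 19.4, and 67.0 CPM of Mup11, against 1.39 to 7.45. Its Mup17 was at 37.3 CPM, against 0.322 to 2.59, its Mup1 at 2.62 CPM, against 0 to 0.427, and its Mup9 at 2.40 CPM, against 0.215 to 0.587.

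HDM201 female 3 was the lowest of 5 for Mup3, at 242 CPM against 453 to 513, and for the sum of the members, at 258 CPM against 470 to 534. Its ratio of Mup20 to Mup3 counts was the highest, at 0.0570 against 0.0188 to 0.0243. The same ratio was 2.13 in old vehicle male 2, against 0.723 to 0.854 in the others, and 5.32 in HDM201 male 4, against 0.988 to 1.56.

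Among values near 0, Mup10 was at 0.739 CPM in young vehicle male 2, against 0.120 to 0.217. Mup7 was at 0.0943 CPM in HDM201 female 5 and Mup12 at 0.0553 CPM in old vehicle female 3, where the other mice of the group had 0.

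The age change of Mup20 differed between the sexes, by 2.56 on the log2 scale in the interaction of sex and age (edgeR FDR 0.00195), lower in females and higher in males.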

How the results depend on the processing

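The number of members called changed as follows. For HDM201 in old females it went from 0 to 1 with DESeq2 and with no filter. For age in females it went from 3 to 4 with DESeq2 and with no filter and to 2 with each of the 3 limma fits. For age in males it went from 1 to 0 with the replicate block and with each of the 3 limma fits. For sex in young mice it went from 5 to 8 with no filter and to 3 with limma on all mice (7 with DESeq2 and with all 6 groups, 4 with the other limma fits), and in old mice from 3 to 7 with DESeq2 and with no filter and to 8 with all 6 groups, to 4 with the replicate block and to 2 with limma on all mice. With each mouse left out, the count for age in females was 3 to 4, for age in males 0 to 0, for sex in young mice 5 to 8 (8 without young vehicle male 3), for sex in old mice 3 to 7 (6 without each old vehicle female, 7 without old vehicle male 2) and for the interaction of sex and age 1 to 2 (2 without old vehicle male 2). Both HDM201 comparisons and their interaction stayed at 0 then. The correlation of deviations between same-numbered mice was -0.222 to 0.222. These values do not show whether same-numbered mice shared a batch, which was not tested. With the replicate block Mup20 with age in males was 0.74 (FDR 0.238) and Mup17 between old males and females -3.21 (FDR 0.0168), turned from 1.93. Also under that block Mup9 with HDM201 in females was -0.095, Mup12 with age in males -0.092 and the interaction of sex and HDM201 for Mup3 -0.013. Under limma on FPKM (pseudocounts 1 and 0.1) Mup9 with HDM201 in females was -0.048 and -0.090, Mup17 with HDM201 in males 0.011 and 0.32, Mup20 with HDM201 in males 0.0076 and 0.0076, and Mup12 with age in males -0.79 and -1.14 (-0.23 with all mice). At the pseudocount of 0.1 Mup1 with HDM201 in males was 0.045 and Mup17 between old males and females -0.30. With each mouse left out the log2 change with HDM201 in males was -1.06 to 0.51 for Mup1, -2.73 to 1.21 for Mup11, -1.52 to 0.30 for Mup12, -3.20 to 4.39 for Mup17 and -0.21 to 0.074 for Mup20. In females it was -0.12 to 0.31 for Mup20 and -0.44 to 0.15 for Mup21. With age it was -1.15 to 0.062 for Mup17 in females, and in males -2.45 to 0.0055 for Mup11, -0.40 to 1.03 for Mup12 and -0.51 to 0.14 for Mup21. Between old males and females Mup17 was -3.28 to 2.80, and the interaction with HDM201 was -0.28 to 0.26 for Mup3 and -0.39 to 0.043 for Mup20. The causes were not tested.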
